A study of Mus musculus with 12 samples.

Results

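The genes described here are 10 rows of a deposited RNA-seq table of mouse embryonic stem cells, taken by name from its 37477 rows: Atf4, Ddit3, Trib3, Chac1, Asns, Cth, Phgdh, Psat1, Shmt2 and Mthfd2. All 10 names were found in the table, and the rule that picks them is by name alone, although the list was drawn up with earlier results of these data known. The cells were CCE cells, an embryonic stem cell line grown in serum medium with LIF, a cytokine that keeps such cells undifferentiated. They were infected with a pLKO.1-puro lentivirus that carried a short hairpin RNA, and all groups were kept in puromycin from the day after infection. The groups were the hairpin against the long noncoding RNA TUNA at day 2, day 4 and day 6 after infection, and a control hairpin at day 2, with 3 libraries each. The control was taken at day 2 alone among the libraries used here. Beyond day 2 the hairpin and the days in culture cannot be told apart, and all 3 comparisons with the control share the same 3 control libraries. The labels do not say whether the replicates were separate cultures, or whether a second hairpin sequence was used, so p-values measure only how far these libraries scatter, and that scatter may be technical.

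ATF4 is a transcription factor of the integrated stress response. When a kinase phosphorylates the initiation factor eIF2 alpha, for instance on amino acid shortage or on misfolded protein in the endoplasmic reticulum, most translation slows while the Atf4 messenger is translated more. ATF4 then raises genes for amino acid synthesis, amino acid import and tRNA charging, together with stress regulators. Because much of this control acts on translation, the Atf4 messenger level measured here is not a measure of ATF4 protein.

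Many ATF4 targets carry a composite site for ATF4 with a C/EBP partner, with the letters TGATGNAA, where N is any base. RefSeq promoters of the mouse build GRCm38.p6, from 250 bases before to 50 bases after the gene start, were found for 9 of the 10 genes. The letters were searched on both strands, and 3 of the 9 genes held a match, against 3.97% of all 32851 promoters of the same length. The pair of matches upstream of the start are shown with their flanks, 5′ to 3′ on the gene's own strand, with the matched letters in capitals. They lie at chr6:7693210-7693248 on the minus strand for Asns, the first matched base 23 bases before the start, and at chr2:119351033-119351072 on the plus strand for Chac1, the first matched base 193 bases before the start and the letters on the opposite strand.
Asns: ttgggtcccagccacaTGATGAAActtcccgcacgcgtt
Chac1: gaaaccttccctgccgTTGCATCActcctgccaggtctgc
The third match, TGATGTAA on the opposite strand of Trib3, lay just after its start. The cyclic AMP response element TGACGTCA, which reads the same on both strands, was in none of the 9 genes and in 1.79% of all promoters. A match is a description of the letters and not of binding, and the windows were read from another build than the mm9 named for the table.

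Values are the authors' normalized counts, raised back from the deposited log2 scale, on which anything at 1 normalized count or less is listed at 0. Depth, recovered from the spacing of low values, ranged over 3522123 to 5652595 reads, of which 936420 to 2024803 lay outside the 3 rows with most reads. The targeted RNA, carried by the row 2810011L19Rik, had no value above 0 in any of the 12 libraries, and the knockdown is thus not checked by the table. All 12 markers of pluripotent cells were detected in every group, with summed levels of 3122 to 3327 normalized counts (day 2), 2955 to 3091 (day 4) and 2270 to 2648 (day 6), against 3532 to 3736 in the control. Markers of fibroblasts and feeder cells summed to 23.5 to 63.9 normalized counts (day 2), 21.8 to 39.0 (day 4) and 348 to 428 (day 6), against 19.4 to 27.6 in the control. The largest parts at day 6 were Tagln, at 149 ± 7.43, and Acta2, at 140 ± 37.6, against 6.24 ± 1.63 and 0.37 ± 0.64 in the control. Thy1, too low for the test, had 3.58 ± 0.83, 0.65 ± 1.13 and 0.52 ± 0.90 at day 2, day 4 and day 6, against 1.86 ± 0.84. Endoderm markers summed to 360 to 391 (day 2), 226 to 337 (day 4) and 373 to 688 (day 6), against 181 to 224. Most of that sum was the single gene Lrp2, at 324 ± 30.5, 192 ± 71.3 and 416 ± 164 at day 2, day 4 and day 6, against 157 ± 17.3 in the control. Lamb1 had 36.0 ± 11.4 at day 2 against 31.7 ± 6.46, and Sox17 was listed at 0 in all 9 libraries with the TUNA hairpin and in 1 of 3 of the control. Of the tested markers, 0 of 12 pluripotency, 0 of 6 fibroblast and 0 of 3 endoderm genes were called at day 2 by limma (2, 1 and 2 at an unadjusted p under 0.05, where 12.3% of all rows were). At day 4, 4 of 12 were lower, 2 of 6 higher and 1 lower, and 1 of 3 higher, and at day 6, 5 of the 12 were lower and all 6 and all 3 higher, where 14.7% and 6.21% of all rows were called at those days. Some of these calls were lost with single libraries left out: Acta2 and Tagln at day 4 with 4 of 6 each, Ctgf at day 4 with 3 and at day 6 with all 6, Zfp42 at day 6 with 5, Lamb1 at day 6 with 2, and Pou5f1 at day 4 and Sox2 at day 6 with 1 each. Of the tested fibroblast markers, Acta2, Thbs1, Timp3, Ctgf and Cyr61 passed the filter given below only through their day 6 libraries. The day 6 count of fibroblast calls is thus partly set by that filter and cannot be weighed against 6.21% of all rows. The fibroblast genes Col1a1, Col1a2, Col3a1, Dcn and Lum, and the endoderm genes Ttr, Apoa1 and Afp, had no value above 0 in any library.

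A row was tested where at least 3 libraries reached 10 normalized counts, which 8739 rows did, 7 of the 10 genes among them. Of these 7, 6 reached that level in each of the 4 groups on its own, and Phgdh in 3 groups. Tests are limma fits of log2(value + 1) over all 12 libraries, with Benjamini-Hochberg adjustment over the 8739 rows and a threshold of 0.05, and log2 changes carry standard errors. On that scale the change of low genes is understated.

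**Figure D1:**
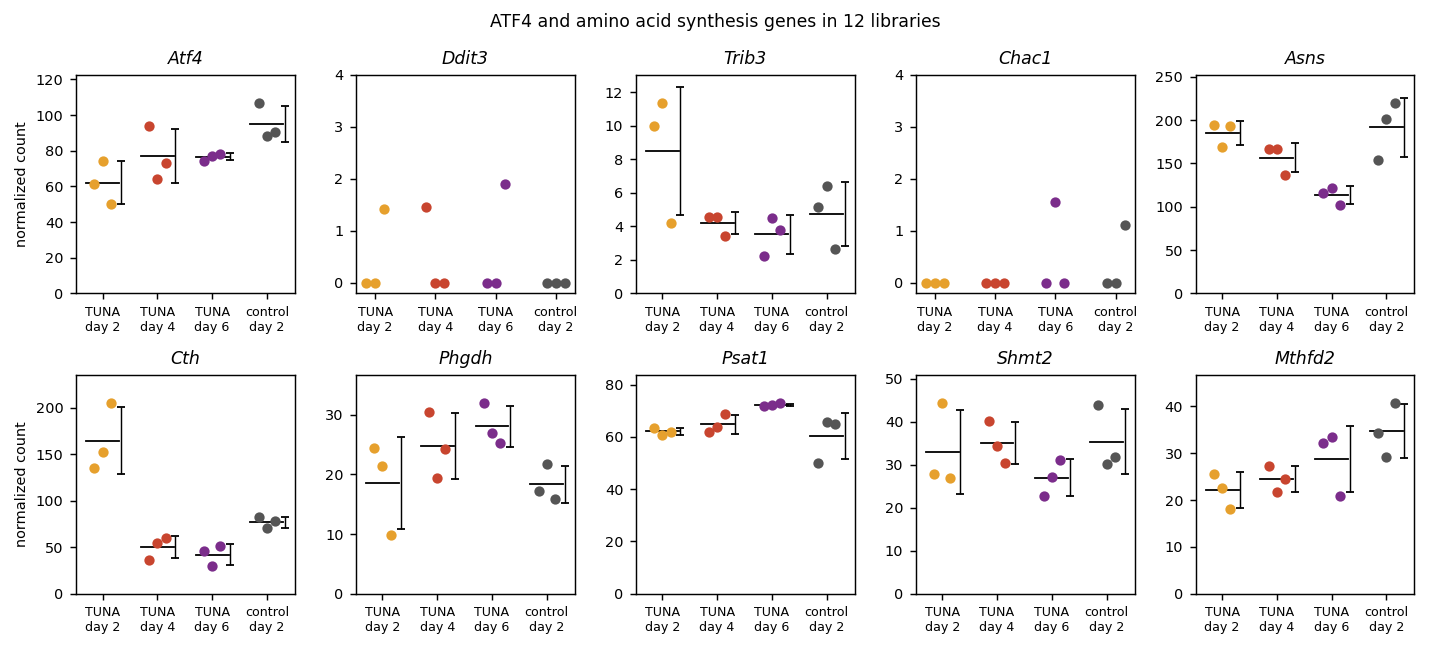
Normalized counts of the 10 genes in each library (points), by group on the horizontal axis, with a line at the mean and a bar of 1 SD to its right (n = 3), both left out for Ddit3 and Chac1, which are mostly listed at 0. Cth stands out at day 2, at 135 to 205 against 70.8 to 82.5 in the control, and Asns is lowest at day 6, at 102 to 122 against 154 to 220.

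Of the regulators of the pathway among the 10 genes, Atf4 alone was tested, and it was called at no day. Ddit3 and Trib3 were too low for the test, so no call was possible for them. Atf4 had 61.5, 74.4 and 50.3 normalized counts at day 2, 94.0, 64.2 and 72.9 at day 4, and 74.5, 77.2 and 78.4 at day 6, against 107, 88.2 and 90.7 in the control. The day 2 and day 6 libraries were all below the lowest control, while day 4 overlapped the control through its first replicate. The log2 change was -0.62 ± 0.19 at day 2 (adjusted p 0.15), -0.31 ± 0.19 at day 4 (0.277) and -0.30 ± 0.19 at day 6 (0.405), by limma. The 95% interval of the day 2 change ran from -1.01 to -0.23 before any adjustment, and in none of the alternatives run did it pass the threshold after adjustment (0.114 to 0.431). In bulk RNA, less RNA per cell and fewer cells that express a gene cannot be told apart, here or for any gene below.

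Ddit3, which encodes CHOP, a transcription factor linked to cell death under lasting stress, was close to absent. It was listed at 0 in all 3 control libraries and in 2 of 3 libraries at each day with the TUNA hairpin, and at 1.42, 1.46 and 1.90 normalized counts in the remaining library of day 2, day 4 and day 6. These stand for at most 2.24 reads, and its annotated exons overlap those of Mars and Gm4189 on the other strand, whose reads cannot be told apart without strand. A single read was worth 0.863 and 0.920 normalized counts in control replicates 1 and 2, where it would be listed at 0. In day 2 replicate 3 it was worth 1.42, so the libraries do not share 1 floor in reads. Chac1, an enzyme that degrades glutathione and a known target of ATF4 with CHOP, was listed at 0 in 10 of 12 libraries, with 1.56 in a day 6 library and 1.10 in a control library, at most 2 reads.

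Trib3, a pseudokinase that is induced by ATF4 and in turn restrains it, had 10, 11.4 and 4.18 normalized counts at day 2, 4.56, 4.56 and 3.43 at day 4, and 2.24, 4.51 and 3.79 at day 6, against 5.18, 6.41 and 2.65 in the control. A pair of day 2 libraries stood above the control, and the third lay within it. At 2.4 to 10 reads per library it was not tested with the other rows. Without the filter its log2 change at day 2 was 0.69 ± 0.51 (adjusted p 0.764 by limma), and the day 4 and day 6 changes were -0.09 ± 0.51 and -0.32 ± 0.51 (adjusted p 0.978 and 0.855). Ddit3 and Chac1 gave 0.43 ± 0.50 and -0.36 ± 0.42 at day 2 without the filter (adjusted p 0.841 and 0.838 by limma). What size of change could have been detected in Ddit3, Trib3 or Chac1 was not tested.

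Cth, cystathionine gamma-lyase, which makes cysteine in the last step of transsulfuration, was the member that moved most. It had 135, 153 and 205 normalized counts at day 2, 36.5, 54.2 and 60.0 at day 4, and 45.4, 29.5 and 51.2 at day 6, against 82.5, 70.8 and 77.7 in the control. All day 2 libraries were above the control, and all day 4 and day 6 libraries were below it. At day 2 it was 2.09-fold higher (log2 change 1.06 ± 0.23, adjusted p 0.0361 by limma), 1 of the 7 tested genes called where 0.961% of all rows were. At day 6 it was lower (-0.89 ± 0.23, adjusted p 0.026), and the day 4 change of -0.63 ± 0.23 did not pass (0.073; 0.0425 without day 4 replicate 3).

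Day 4 against day 2, both with the TUNA hairpin, gave the largest change of any tested member in these 5 comparisons. Cth was lower at day 4, at 50.2 ± 12.2 against 164 ± 36.0 normalized counts at day 2 (SD, n = 3; log2 change -1.70 ± 0.23, adjusted p 0.000241 by limma), where 7.66% of all rows were called. Leaving out any 1 of its 6 libraries kept this call (adjusted p up to 0.00339), with changes from -1.84 to -1.49. Day 6 against day 4 gave -0.26 ± 0.23 (adjusted p 0.57). The calls against the control did not hold so widely. The day 2 call was lost with any of the 6 libraries left out (adjusted p 0.0627 to 0.178) and without a filter (0.0502), and the day 6 call with any of 5 of 6 left out (0.057 to 0.127), all but day 6 replicate 3.

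Asns, asparagine synthetase, whose promoter match is printed above, had 194, 170 and 193 normalized counts at day 2, 166, 166 and 137 at day 4, and 116, 122 and 102 at day 6, against 154, 201 and 220 in the control. Day 2 and day 4 overlapped the control, and the 3 day 6 libraries lay below every other library. At day 6 it was lower, at 113.5 ± 10.1 against 192 ± 33.7 (SD, n = 3; log2 change -0.74 ± 0.16, adjusted p 0.00916 by limma), with Cth 1 of 2 members called lower there, where 3.15% of all rows were lower. The call was lost without control replicate 3 (adjusted p 0.0535) and held without any other single library. The changes were -0.03 ± 0.16 at day 2 (95% interval -0.37 to 0.30) and -0.28 ± 0.16 at day 4, with adjusted p of 0.962 and 0.258. Day 6 against day 4 gave -0.46 ± 0.16 without overlap between the groups, and did not pass (0.102). At day 6 the 6 tested fibroblast and 3 tested endoderm markers were also called higher and 5 of 12 pluripotency markers lower. The fibroblast and endoderm lists held 12 markers each, of which 5 and 4 were at 0 in all day 6 libraries. Most of the 6 fibroblast markers could be tested only through their day 6 values. The part of these markers in the Asns and Cth values was not tested.

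**Figure D2:**
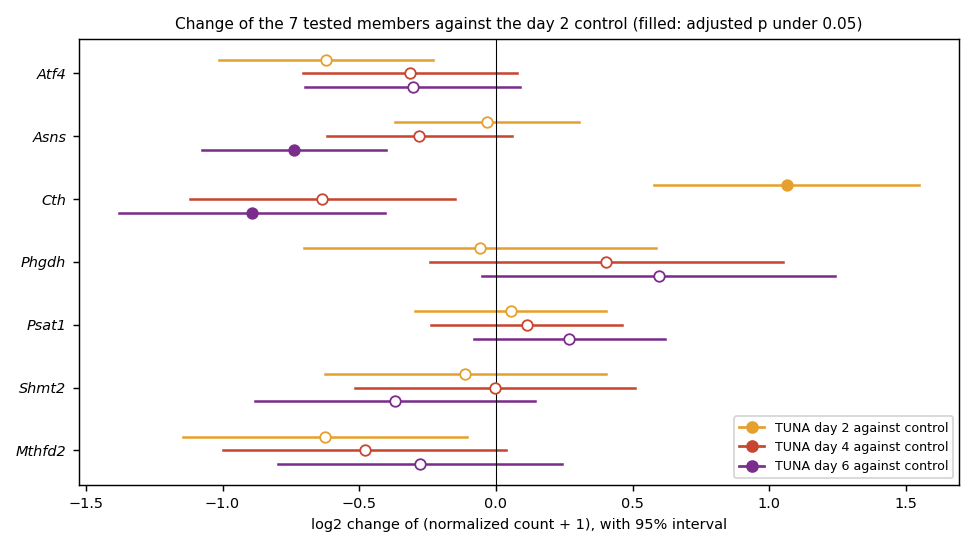
Log2 change of (normalized count + 1) against the day 2 control for the 7 tested genes at day 2, day 4 and day 6, with 95% intervals that are not adjusted for the number of rows. Filled points passed the adjusted threshold: Cth at day 2 (1.06) and day 6 (-0.89), and Asns at day 6 (-0.74).

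The serine pathway runs from a glycolytic intermediate through Phgdh, its first enzyme, and Psat1, the aminotransferase that follows. Phgdh had 24.4, 21.4 and 9.90 normalized counts at day 2, 30.5, 19.4 and 24.3 at day 4, and 31.9, 27.0 and 25.3 at day 6, against 17.2, 21.8 and 15.9 in the control. The day 6 libraries all lay above the control and the others overlapped it. Its changes were -0.06 ± 0.31, 0.40 ± 0.31 and 0.60 ± 0.31 at day 2, day 4 and day 6 (adjusted p 0.965, 0.406 and 0.302 by limma). The row Phgdh-ps1, named as a pseudogene copy, was listed at 0 throughout, and how reads were shared with other copies is a step the sources used here do not give.

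Psat1 had 63.6, 60.9 and 62.0 normalized counts at day 2, 61.8, 63.8 and 68.9 at day 4, and 72.0, 72.0 and 72.8 at day 6, against 50.03, 65.9 and 65.0 in the control. Day 6 lay above the control without overlap, by 0.27 ± 0.17 on the log2 scale (95% interval -0.08 to 0.62, adjusted p 0.407 by limma), and its changes at day 2 and day 4 were 0.05 ± 0.17 and 0.11 ± 0.17.

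Shmt2 and Mthfd2 are mitochondrial enzymes that turn serine to glycine and carry the released carbon on folate. Shmt2 had 27.9, 44.3 and 26.9 normalized counts at day 2, 40.1, 34.4 and 30.4 at day 4, and 22.7, 27.1 and 31.2 at day 6, against 44.0, 30.2 and 31.8 in the control. All groups overlapped the control, with changes of -0.11 ± 0.24, 0.00 ± 0.24 and -0.37 ± 0.24 (adjusted p 0.447 or higher by limma). The exons of Shmt2 overlap those of Ndufa4l2 on the other strand. Mthfd2 had 25.6, 22.7 and 18.2 normalized counts at day 2, 27.3, 21.7 and 24.4 at day 4, and 32.3, 33.4 and 20.8 at day 6, against 34.3, 29.2 and 40.6 in the control. Day 2 and day 4 lay below the control without overlap and day 6 overlapped it. The changes were -0.63 ± 0.25, -0.48 ± 0.25 and -0.28 ± 0.25, and none passed (adjusted p 0.301, 0.203 and 0.597).

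Across the 7 tested genes, 1 was called higher and 0 lower at day 2, where 0.412% and 0.549% of all rows were higher and lower. At day 4, 0 of 7 were called in either direction, where 6.99% of all rows were higher and 7.76% lower, 14.7% in all. At day 6, 0 were higher and 2 lower, where 3.07% and 3.15% of all rows were, 6.21% in all. Day 4 had the most calls over the table and none among these genes by limma, but 7 genes are too few to set this apart from 14.7%. At an unadjusted p under 0.05 by limma there were 3 of 7 at day 2, Atf4, Cth and Mthfd2, where 12.3% of all rows were. There was 1 of 7 at day 4, Cth, where 29.9% of all rows were. At day 6 there were 2 of 7, Asns and Cth, where 19.5% of all rows were.

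Groups without overlap numbered 3 of 7 at day 2, with 1 above and 2 below the control, where 20.1% of all rows had none, 9.76% above and 10.3% below. At day 4 they numbered 2 of 7, both below, where 32.4% of all rows had no overlap, 15.5% above and 16.9% below. At day 6 they numbered 5 of 7, where 24% of all rows had none, 11.2% above and 12.8% below. Atf4, Asns and Cth then lay below the control, and Phgdh and Psat1 above it. The median log2 change of the 7 was -0.06, -0.28 and -0.30 at day 2, day 4 and day 6, beside 0.01, -0.01 and -0.01 over all rows.

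Between days, 0 of 7 were higher and 1 lower at day 4 against day 2, where 3.27% and 4.38% of all rows were, and 2 of 7 had groups without overlap, where 28.6% of all rows did. For day 6 against day 4, 0 of 7 were called, where 2.64% of all rows were higher and 2.94% lower, 5.58% in all. At an unadjusted p under 0.05 there was 1 of 7, Asns, where 20.7% of all rows were, and 2 of 7 had groups without overlap, where 23.3% of all rows did.

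The rows most like 3 of the genes were sought among 3259 others averaging at least 50 normalized counts, by the root mean square difference between centred log2 profiles over the 12 libraries, which share 1 scaling. For Cth these were Gm12892, annotated in GENCODE as a processed pseudogene, at 0.36, Nfatc2ip at 0.41 and Gm9067 at 0.44, where the median row was at 0.82. Gm12892 had 87.4 ± 9.996 normalized counts at day 2, 41.8 ± 5.61 at day 4 and 35.9 ± 4.96 at day 6, against 52.5 ± 14.4 in the control (SD, n = 3). For Asns they were Eif2s2 (0.17), which encodes the beta subunit of eIF2, Arih2 (0.17) and Zfp91 (0.17), with a median row at 0.42. Eif2s2 had 507 ± 44.0, 361 ± 31.6 and 353 ± 48.9 at day 2, day 4 and day 6, against 511 ± 80.3 in the control. For Atf4 they were Bod1l (0.17), the kinase gene Pim3 (0.17) and Agps (0.18), with a median row at 0.41. Pim3 had 128 ± 10.2, 141 ± 10.7 and 160 ± 15.9, against 192 ± 5.47 in the control.

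Further genes of the pathway were taken from 8 lists of its branches. At day 2, 0 genes of any list passed by limma, while 1 to 4 genes of each had an unadjusted p under 0.05, where 12.3% of all rows did. Among transcription factors and stress regulators known as partners or targets of ATF4, 5 of 14 were tested. At day 4, 2 were higher and 0 lower, where 6.99% of all rows were higher, and at day 6, 1 was higher and 0 lower, where 3.07% were higher. Ddit4, an inhibitor of mTORC1 that also responds to low oxygen and p53, had 102, 95.7 and 53.3 normalized counts at day 4, against 12.9, 14.7 and 15.4 in the control, a log2 change of 2.41 ± 0.27 (limma, adjusted p 3.14e-05). At day 6 it had 15.8, 14.0 and 19.9, so only the day 4 libraries were high, and day 6 against day 4 gave -2.23 ± 0.27 (9.56e-05). Sesn2, a sestrin that restrains mTORC1 and also responds to p53, had 29.0 ± 1.29 at day 4 and 29.4 ± 3.93 at day 6, against 15.7 ± 2.58 in the control (0.85 ± 0.25 and 0.87 ± 0.25; adjusted p 0.0278 and 0.0463). Those calls were lost with 5 of 6 and with all 6 libraries left out in turn, up to 0.0996 and 0.155. Sesn2 already had 28.6 ± 7.63 at day 2, with 34.5, 31.3 and 19.9 all above the highest control at 18.1. Groups did not overlap in 20.1% of all rows there. Its day 2 change had an unadjusted p under 0.05 by limma and was not called after adjustment. Cebpg, the C/EBP partner of ATF4, gave -0.47 ± 0.33, 0.17 ± 0.33 and 0.09 ± 0.33 at day 2, day 4 and day 6 and passed at none. Atf5, a further ATF4 target, was too low for the test at 0 to 4.48 normalized counts with the TUNA hairpin against 2.21 to 5.68 in the control, and Fgf21 was listed at 0 in all 12 libraries. Other untested genes of the list were higher at some day. Vldlr had 9.04, 17.0 and 18.3 at day 4 and 1.91 ± 0.42 at day 6, against 0 to 3.68 in the control. Atf3 had 3.79 to 5.46 at day 6 against 0 to 1.73. Gdf15 had 2.44 to 4.21 at day 4 and 0 throughout day 6, against 0 to 2.21.

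The list for eIF2 alpha held Eif2s1, the kinase genes Eif2ak1, Eif2ak2, Eif2ak3 and Eif2ak4, the phosphatase subunit gene Ppp1r15b, and Impact and Gcn1l1, which encode regulators of the kinase GCN2. All 8 were tested, and 0 passed in any of the 5 comparisons by limma, with 1 at day 2, 0 at day 4 and 1 at day 6 against the control at an unadjusted p under 0.05, where 12.3%, 29.9% and 19.5% of all rows were. Eif2ak4, which encodes the amino acid sensing kinase GCN2, had 13.6 ± 2.69 normalized counts at day 2, against 6.19 ± 2.19 in the control (SD, n = 3; log2 change 1.06 ± 0.47, adjusted p 0.37). Eif2s1, which encodes eIF2 alpha itself, gave -0.04 ± 0.15 at day 2, -0.14 ± 0.15 at day 4 and -0.33 ± 0.15 at day 6.

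**Figure D3:**
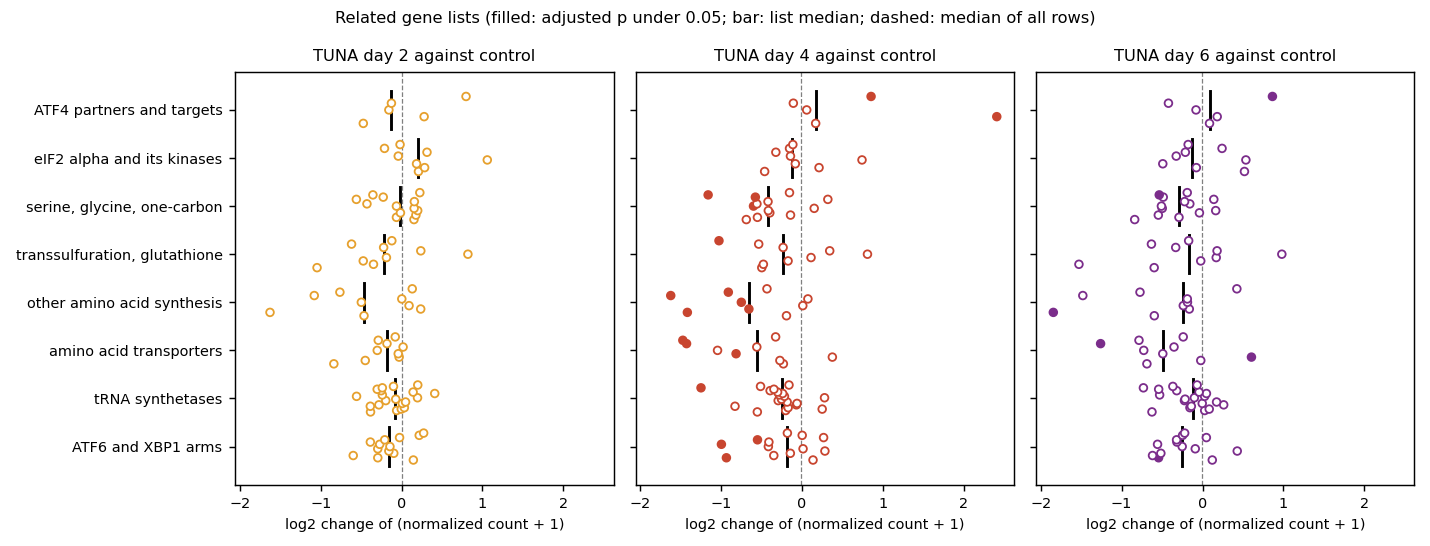
Log2 change against the day 2 control for tested genes of 8 lists related to ATF4 (points, 1 per gene), with a bar at each list's median and a dashed line at the median of all rows. No list gene was called at day 2, and most filled points, which passed the adjusted threshold, lie left of 0 at day 4, with Ddit4 at 2.41 far to the right.

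Of 9 tested transporters, 3 were lower at day 4 with 0 higher, and at day 6, 1 was lower and 1 higher, where 14.7% and 6.21% of all rows were called. Slc7a3, a carrier of arginine and lysine, had 94.3, 96.9 and 146 normalized counts at day 4 and 147, 99.1 and 130 at day 6, against 338, 291 and 269 in the control. All 6 later libraries lay below the control (-1.43 ± 0.19, adjusted p 0.000107, and -1.26 ± 0.19, 0.000475, by limma). Slc7a5 and Slc3a2, which encode the light and heavy chains of a carrier of large neutral amino acids, were lower at day 4. Slc7a5 had 7.503 ± 3.70 against 21.1 ± 2.60 (adjusted p 0.0124) and Slc3a2 42.5 ± 9.12 against 75.4 ± 13.5 (0.00992; 0.0546 without control replicate 1). Slc38a2, a carrier of glutamine and alanine that amino acid shortage is known to raise, was higher at day 6, at 217 ± 10.3 against 143 ± 21.7 (0.61 ± 0.15, adjusted p 0.0168), a call lost with 4 of 6 libraries left out in turn (up to 0.0903). Slc7a11, the cystine carrier, spread from 1.63 to 22.5 normalized counts among libraries with the TUNA hairpin and from 4.08 to 12.9 in the control.

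Of 13 further tested genes of serine, glycine and folate metabolism, 3 were lower at day 4 and 1 at day 6, with 0 higher at either and medians of -0.42 and -0.29. Over all rows 7.76% were lower at day 4 and 3.15% at day 6. Tdh, threonine dehydrogenase, from which mouse embryonic stem cells draw glycine and folate-bound carbon, had 147, 190 and 176 normalized counts at day 4 and 297, 267 and 231 at day 6, against 381, 387 and 379 in the control. At day 2 Tdh had 323, 282 and 292, all below the control, where 20.1% of all rows had groups without overlap. Its day 2 change had an unadjusted p under 0.05 by limma and was not called after adjustment. The day 4 libraries were the lowest, and day 6 lay between day 4 and the control (-1.16 ± 0.14, adjusted p 6.11e-05, and -0.54 ± 0.14, 0.0301, by limma). Day 6 against day 4 was 0.63 ± 0.14 (0.0143). The day 6 call against the control was lost with 5 of 6 libraries left out in turn (up to 0.0918), and that of day 6 against day 4 with 2 of 6 (up to 0.0861). Shmt1, the cytosolic counterpart of Shmt2, had 136 ± 12.1 against 204 ± 14.9 at day 4 (-0.58 ± 0.17, adjusted p 0.0291), and Mthfd1l 66.0 ± 7.62 against 101 ± 14.9 (-0.60 ± 0.17, 0.0242). Both calls were lost with 4 and 3 of 6 libraries left out (up to 0.106 and 0.111). Mthfd1, a cytosolic folate enzyme, was lower at day 6 than at day 4, at 90.8 ± 11.03 against 143 ± 17.0 (-0.65 ± 0.15, 0.0179), a call lost with 3 of 6 left out. Psph, the phosphatase that completes serine synthesis after Psat1, gave -0.56 ± 0.27, 0.32 ± 0.27 and 0.14 ± 0.27 at day 2, day 4 and day 6 and passed at none.

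Among 9 tested genes of transsulfuration, the methionine cycle and glutathione, 1 was lower at day 4, where 7.76% of all rows were. At day 6, 0 passed, and 2 of 9 had an unadjusted p under 0.05, where 19.5% of all rows did. Mat2a, which makes S-adenosylmethionine from methionine, had 300, 303 and 242 normalized counts at day 4, against 526, 638 and 558 in the control (-1.03 ± 0.14, adjusted p 0.000112 by limma). It stood at 467, 520 and 540 at day 6, and the day 4 libraries were again the low ones. Cbs, the enzyme before Cth in transsulfuration, had 11.1, 5.59 and 14.1 at day 2, 7.07, 6.84 and 13.4 at day 4 and 4.50, 5.46 and 1.90 at day 6, against 17.3, 12.8 and 8.78 in the control. Day 2 and day 4 overlapped the control and day 6 lay below it, and the day 6 change of -1.53 ± 0.46 did not pass (adjusted p 0.0583).

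Of 9 tested genes of other amino acid synthesis, 5 were lower and 0 higher at day 4, where 7.76% and 6.99% of all rows were, and 1 was lower at day 6, where 3.15% were. Glul, glutamine synthetase, had 124 ± 20.3 normalized counts at day 4, against 209 ± 14.5 in the control (-0.75 ± 0.15; limma, adjusted p 0.00299). Bcat1, a branched-chain aminotransferase, had 186 ± 11.9 at day 4 against 296 ± 37.7 (-0.66 ± 0.17, 0.0136), a call lost without control replicate 2 or 3 (up to 0.057). Gpt2, alanine aminotransferase, had 4.42 ± 2.89 against 13.7 ± 1.47 (0.0407), and Ass1, which makes argininosuccinate, 4.29 ± 0.47 at day 6 against 18.2 ± 3.78 (0.019). These last calls were lost with 5 and 4 of 6 libraries left out (up to 0.14 and 0.0907). At day 4 Ass1 had 6.70 ± 3.35 against 18.2 ± 3.78 (-1.42 ± 0.45, 0.0433), and that call too was lost with 4 of 6 left out (up to 0.185). Aldh18a1, the first enzyme of proline synthesis, passed at no day.

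All 20 cytosolic tRNA synthetase genes were tested, and 1 was lower at day 4, where 7.76% of all rows were. At day 6, 0 passed, and 4 of 20 had an unadjusted p under 0.05, where 19.5% of all rows did. Vars, for valine, had 37.2 ± 6.58 normalized counts at day 4, against 90.6 ± 21.4 in the control (-1.25 ± 0.23; limma, adjusted p 0.00134). At day 4, 18 of the 20 had a negative change, with a median of -0.25 beside -0.01 over all rows. Of the 20, 4 had an unadjusted p under 0.05 at day 4 by limma, where 29.9% of all rows did. Of 13 tested genes of the ATF6 and XBP1 arms, which answer misfolded protein in the endoplasmic reticulum, 3 were lower at day 4 and 1 at day 6, where 7.76% and 3.15% of all rows were. The chaperone gene Calr had 242, 274 and 247 at day 4, against 511, 495 and 456 in the control (-0.94 ± 0.13, 0.00019). Calr was also the day 6 call, at 336 ± 43.3 against 488 ± 28.6 (-0.54 ± 0.13, 0.0185), lost with 4 of 6 libraries left out in turn (up to 0.0798). Hyou1 had 61.2, 86.7 and 69.3 at day 4 against 165, 131 and 139 (-0.998 ± 0.17, 0.000785). Pdia4, a disulfide isomerase of that compartment, had 234 ± 20.4 at day 4 against 344 ± 28.4 (-0.55 ± 0.15, 0.0201), a call lost with 4 of 6 libraries left out in turn. Hspa5, the main chaperone of that compartment, gave -0.14 ± 0.15, -0.42 ± 0.15 and -0.25 ± 0.15 at day 2, day 4 and day 6 and passed at none (lowest adjusted p 0.073).

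**Figure D4:**
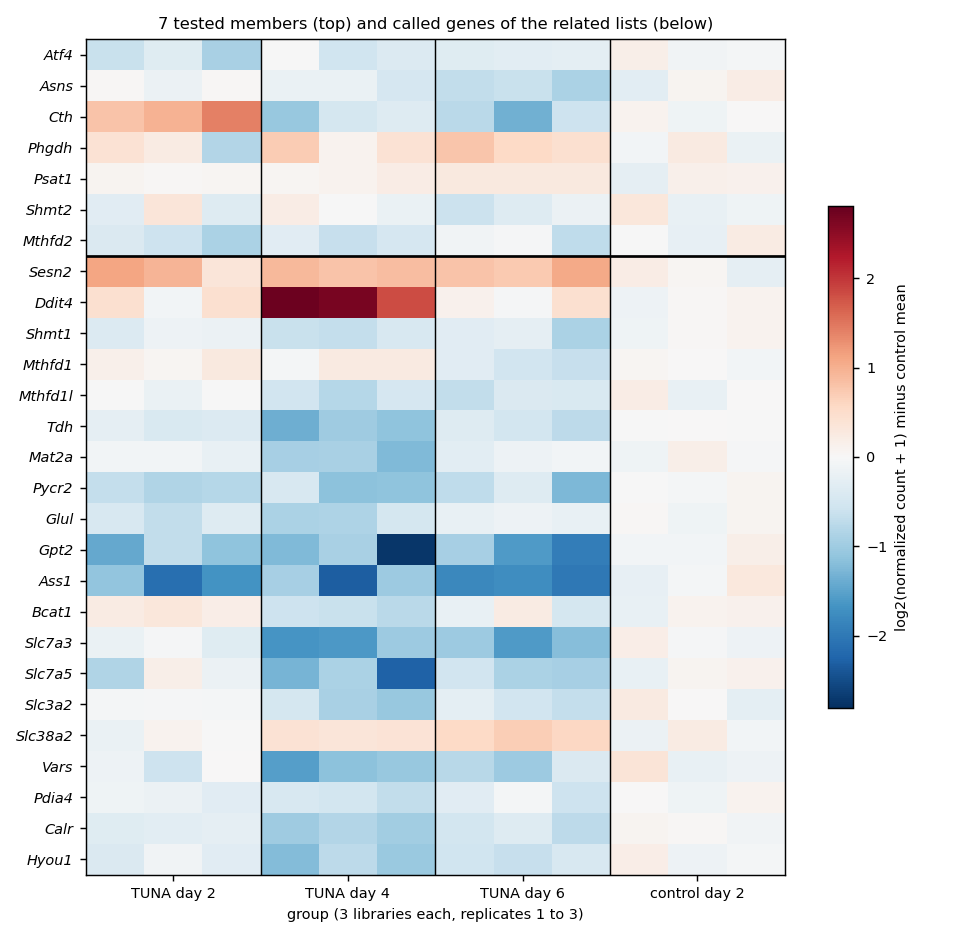
Log2(normalized count + 1) of each library minus the control mean, for the 7 tested genes above the line and 20 called genes of the related lists below it, with the groups on the horizontal axis. Red is above and blue below the control mean: Cth is red at day 2 and blue at day 4 and day 6, Ddit4 is reddest at day 4 within its own row, and Slc7a3 is blue at day 4 and day 6.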

How the data were processed

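RNA of 12 libraries in 4 groups was analysed. The authors deposited log2 normalized counts, and the submitters' processing notes name BWA, DESeq and mm9 without versions or roles. The counting rule and strand are not given in the sources used here. Deposited log2 values stop at 0, and these were set to 0 normalized counts. The spacing of the most frequent low values gave the worth of 1 read, 0.651 to 1.42 normalized counts. Of the values below 20 reads, only 43.9% to 56.7% fell within 0.02 of whole reads, and no count test was run.

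A row entered the fit where 3 or more libraries reached 10 normalized counts. The limma package, version 3.58.1 (R 4.3.3), fitted log2(value + 1) by group with an intensity trend (8 residual and 9.48 prior degrees of freedom). The 10 genes and 11 related lists (142 genes, 107 tested) were chosen with earlier results of these data known. From lists the text names called members, up to 4 per comparison by p, members needed for a role, and some members too low for the test. One list gene is not reported here and was taken out of its list. Chac1 was left out of the search for like profiles because it was mostly listed at 0. Gene names and overlaps come from GENCODE M21 on GRCm38. Plots used matplotlib 3.10.9 (Python 3.11.15).

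Alternatives were median-of-ratios and upper-quartile scaling, no filter, a pseudocount of 5, only the groups compared, voom precision weights, a block on the replicate number, and each library left out.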

Additional observations from a re-analysis of the deposited data

Results flagged for a closer look

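The effect of the TUNA hairpin on Cth, each day set against the shared day 2 control, differed between day 4 and day 2 by -1.70 on the log2 scale (standard error 0.23, adjusted p 0.000241 by limma with Benjamini-Hochberg adjustment). All 3 day 4 libraries lay below all 3 day 2 libraries. The control cancels in this difference, so it is the same test as day 4 against day 2, and days in culture changed with it. Groups of 3 are too small for a test of single deviating libraries, and none was made.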

How the results depend on the processing

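Cth at day 4 against day 2 and Asns at day 6 stayed past the threshold under all 7 other settings, and Cth at day 6 against the control did too. Without a filter, 27 rows were lower at day 2, against 48 in the fit reported. With only the groups compared, 92 rows were higher and 105 lower for day 6 against day 4, against 231 and 257. With 1 library left out in turn, rows higher and lower numbered 9 to 23 and 9 to 21 at day 2, 365 to 581 and 445 to 717 at day 4, 131 to 245 and 160 to 320 at day 6, 143 to 273 and 189 to 471 for day 4 against day 2, and 103 to 224 and 123 to 247 for day 6 against day 4. The cause was not tested beyond the fewer samples fitted.

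Directions turned only for changes that passed in no fit. With 1 library left out, the day 2 change ran from -0.18 to 0.074 for Asns, -0.29 to 0.32 for Phgdh, -0.073 to 0.12 for Psat1 and -0.34 to 0.052 for Shmt2. The day 4 change ran from -0.015 to 0.18 for Psat1 and -0.10 to 0.16 for Shmt2, day 4 against day 2 from -0.0165 to 0.33 for Shmt2, and day 6 against day 4 from -0.11 to 0.16 for Atf4. The Shmt2 day 4 change was 0.0027 with median-of-ratios and 0.016 with upper-quartile scaling.

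Samples of the same replicate number did not deviate together: 3 of 18 such pairs correlated above 0.1, and 5 of 36 pairs of different number. With the replicate block, 36 rows were higher and 40 lower at day 2, and no count moved by over 1.5 times. Ddit3, Trib3 and Chac1 had at most 2.24, 10 and 2 reads in a library, which limits what their values can show.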
